A study of Mus musculus with 6 samples.

Results

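The 36 genes described here are the Wnt ligands, their Frizzled receptors and the secreted Wnt antagonists of the Sfrp and Dkk families. They were every gene whose name on the arrays was Wnt, Fzd, Sfrp or Dkk followed by a number and, for some Wnt genes, a letter, with names of divergent promoters read as well. They made up 36 of 16807 genes and 1256 of 474380 non-control probes: 19 Wnt genes with 673 probes, 9 Fzd genes with 293, 4 Sfrp genes with 141 and 4 Dkk genes with 149. The rule read names and no measured value, though the families were picked with earlier results of these data known.

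Wnt proteins are secreted lipid-modified ligands that bind Frizzled receptors together with the co-receptors Lrp5 or Lrp6. Binding stabilises beta-catenin, which acts with TCF/LEF factors in the nucleus, and other Frizzled signals act without beta-catenin. Sfrp proteins carry a Frizzled-like domain and bind Wnt ligands outside the cell, whereas Dkk1, Dkk2 and Dkk4 act through Lrp5 and Lrp6. SMAD1 and SMAD5 carry the signal of bone morphogenetic proteins, SMAD2 that of Nodal and activin, and SMAD4 is the partner of both branches. In mouse embryonic stem cells, Wnt signalling is known to help hold self-renewal.

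The study profiled chromatin of the mouse embryonic stem cell line R1, kept undifferentiated without feeder cells, with leukemia inhibitory factor and knockout serum replacement. There were 3 groups in these same cells, the SMAD1/5, the SMAD2 and the SMAD4 immunoprecipitate, each hybridised in Cy5 against its own whole cell extract DNA in Cy3 (the input). The antibodies had been raised against linker regions of the human proteins, each antibody had 1 biological replicate, and its 2 arrays carried different probes of 1 promoter set, so 6 arrays were available. No dye swap, mock precipitate or other control was analysed here. The protocol text of the SMAD2 samples names the Smad1/5 antibody, while their titles, characteristics and the design text name SMAD2, and the samples are called SMAD2 below on that basis. Arrays of genomic DNA hold no expression value, so the cell type could not be checked by marker genes.

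Each value is the log2 ratio of processed immunoprecipitate over input signal, centred on the array median. A window is the mean over the probes within 500 bp of a probe, with at least 3 probes, and its z is its distance from the median window in robust SDs of that array. That SD was the same for every number of probes, so windows of 3 probes can reach an extreme z more readily than fuller ones. A window was called enriched when z reached 4 and 2 or more of its probes lay above the 95th percentile of the array's probes, and low by the same rule turned over. The SD given with a window is over its probes and is no replicate error. Since every antibody was measured once, no comparison below has a replicate check or a p-value. The array spread differed between antibodies: a z of 4 stood for a mean log2 ratio of 4.61 and 4.17 on the SMAD1/5 arrays, 2.29 and 2.23 on the SMAD2 arrays and 2.30 and 2.29 on the SMAD4 arrays. Of the members' probes, 77.5% and 87.9% had an input signal well above background with SMAD1/5. The shares were 91.4% and 88.4% with SMAD2, and 99.9% and 99.8% with SMAD4.

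The start-site sequences of these genes are rich in CpG. RefSeq (GRCm38.p6) gave 27 promoter sequences of 300 bases, 250 before the start and 50 after it, for 24 of the 36 members. Their median GC content was 66.7%, against 58.0% over 16329 promoters of genes on the arrays, and the median number of CpG dinucleotides was 26 against 16. The lowest GC content among them was 48.3%, at Wnt8b, and the highest was 86.3%, at Wnt3a. The 4 promoters below are shown because their genes carry the highest or lowest windows described later and differ in composition and in SMAD and TCF/LEF elements, which stand in capitals. They are given 5′ to 3′ on the strand of the gene. Wnt8b lies at chr19:44493222-44493521 on the plus strand, with 6 CpG dinucleotides. Dkk1 lies at chr19:30549447-30549746 on the minus strand, with 9. Fzd1 lies at chr5:4758167-4758466 on the minus strand, with 16, and Wnt1 at chr15:98789607-98789906 on the plus strand, with 26.
Wnt8b: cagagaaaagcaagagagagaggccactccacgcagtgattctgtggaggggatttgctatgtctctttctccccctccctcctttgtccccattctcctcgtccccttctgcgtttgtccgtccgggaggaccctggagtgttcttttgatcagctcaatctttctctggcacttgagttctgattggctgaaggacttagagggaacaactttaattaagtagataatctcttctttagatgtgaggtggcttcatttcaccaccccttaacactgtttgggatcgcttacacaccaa
Dkk1: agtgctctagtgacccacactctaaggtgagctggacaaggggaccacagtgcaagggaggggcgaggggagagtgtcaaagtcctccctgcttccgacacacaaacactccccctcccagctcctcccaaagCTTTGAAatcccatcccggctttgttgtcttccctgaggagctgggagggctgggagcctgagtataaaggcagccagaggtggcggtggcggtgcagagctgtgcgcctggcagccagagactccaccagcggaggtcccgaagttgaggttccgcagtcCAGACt
Fzd1: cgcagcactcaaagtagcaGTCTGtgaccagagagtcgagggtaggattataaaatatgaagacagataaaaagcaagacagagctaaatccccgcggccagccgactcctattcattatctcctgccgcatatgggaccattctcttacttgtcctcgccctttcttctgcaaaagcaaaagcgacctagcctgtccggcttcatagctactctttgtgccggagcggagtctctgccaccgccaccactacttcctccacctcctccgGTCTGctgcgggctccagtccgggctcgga
Wnt1: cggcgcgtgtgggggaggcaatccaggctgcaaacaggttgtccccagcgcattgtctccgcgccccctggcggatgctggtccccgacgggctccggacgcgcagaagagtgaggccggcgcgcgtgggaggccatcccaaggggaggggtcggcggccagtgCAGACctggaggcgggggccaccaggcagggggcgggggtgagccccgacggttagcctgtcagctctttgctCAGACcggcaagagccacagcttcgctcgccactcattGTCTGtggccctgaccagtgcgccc
The Wnt8b promoter held none of the searched elements. Wnt1 held 3 short SMAD elements, Fzd1 held 2, and Dkk1 held 1 short SMAD element and 1 TCF/LEF element.

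Across all matched members, the short SMAD element, CAGAC on either strand, was in 14 of 27 promoters (51.9%), against 48.4% of promoters of genes on the arrays. The GC-rich SMAD element, GGCGCC, was in 9 of 27 (33.3%), against 16.8%, in a set that is also richer in G and C. The TCF/LEF element, CTTTGAA or CTTTGAT on either strand, was in 3 of 27 (11.1%), against 7.09%. The palindrome GTCTAGAC, whose letters hold no full CAGAC on either strand, was in 0 of 27, against 0.23%. A match to these letters is a description of the window and not a bound site. The positions of the arrays' probes differ from those of GRCm38 and the sources used here do not name their build, so sequences were set beside the arrays by gene and not by coordinate.

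The members were tiled more densely than most genes. They had a median of 37 probes, from 9 at Fzd3 to 46 at Wnt11 and Fzd4, against a median of 28 over all genes, and a median of 36 windows against 26. A gene with more windows has more chances of a high or a low one. Most members were covered from about 5 kb before to about 2 kb after the start site. Wnt7b reached only 2387 bp before its start, Sfrp4 3368 bp and Fzd8 3921 bp, whereas Wnt10b, Wnt5b and Wnt1 reached 9524, 9655 and 9950 bp. Fzd3 had no probe near its start: its 9 probes lay 8022 to 9802 bp before it, in a promoter shared with Fbxo16. Several ligand genes are neighbours: the tiled stretches of Wnt1 and Wnt10b overlap by 8364 bp and share 17 probes, and those of Wnt3a and Wnt9a lie 5327 bp apart. The gap was 11886 bp between Wnt6 and Wnt10a and 13934 bp between Wnt3 and Wnt9b.

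Few members carried a called window. With SMAD4, 1 of 36 members was enriched, Wnt8b, against 2.49% of all genes. With SMAD2, 0 of 36 were enriched, against a background of 0.0667%. With SMAD1/5 the count was also 0 of 36, against 0.0% of the genes measured. The only low member was Wnt5b with SMAD1/5, 1 of 36 where 2.62% of all genes were low. With SMAD2 and SMAD4, 0 of 36 were low, against 0.34% and 0.0485% of all genes. Read against the background, these counts show nothing particular to the families.

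At the lower height of z of at least 2, the members' counts of genes were near the background with SMAD1/5 and SMAD2 and lower with SMAD4, and none of these differences was tested. With SMAD1/5, 2 of 36 members (5.56%) had such a window, against 5.97% of all genes. With SMAD2 there were 8 of 36 (22.2%), against 18.5%, and with SMAD4 12 of 36 (33.3%), against 40.1%. Counted over windows in place of genes, 0.419% of 1193 member windows reached z of 2 with SMAD1/5, against 0.409% of all windows. With SMAD2, where the share of genes was the higher one for members, the share of windows was the lower one, at 0.855% of 1170 member windows against 1.67%. With SMAD4 it was 4.11% of 1193 against 5.69%. The counts of members moved with the processing: with SMAD2 the 8 became 2 to 4 under normexp correction, loess, trend removal, the mean input, bright probes and the authors' deposited values. With SMAD1/5 the 2 became 0 with bright probes and 21 under normexp correction, and with SMAD4 the 12 became 5 after trend removal and 4 with the mean input. No share of all genes is given for these alternatives. The members' median highest z was 1.44 with SMAD1/5, 1.50 with SMAD2 and 1.61 with SMAD4, against 1.26, 1.36 and 1.74 over all genes.

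Low windows were counted in the same way. A window at z of -2 or lower was present at 7 of 36 members with SMAD1/5 (19.4%), against 32.3% of all genes. With SMAD2 it was present at 10 of 36 (27.8%), against 30.1%, and with SMAD4 at 5 of 36 (13.9%), against 18.3%. Over windows, the shares were 2.10% against 3.86% with SMAD1/5, 1.62% against 3.54% with SMAD2 and 1.01% against 1.76% with SMAD4. Each of these 6 shares was lower for the members than for all genes or windows, and the differences were not tested.

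High SMAD4 windows were unevenly spread over the families. A SMAD4 window of z at least 2 was present at 9 of 19 Wnt genes (47.4%) and 3 of 4 Sfrp genes, against 40.1% of all genes. It was present at 0 of 9 Fzd genes and 0 of 4 Dkk genes. Counted over windows, the share was 5.55% for Wnt and 10.3% for Sfrp genes, against 5.69% of all windows. The median highest SMAD4 z was 1.97 over the Wnt genes, 2.50 over the Sfrp genes, 1.50 over the Fzd genes and 1.41 over the Dkk genes, with 1.74 over all genes. With SMAD2 the counts were 5 of 19 Wnt, 1 of 9 Fzd, 1 of 4 Sfrp and 1 of 4 Dkk genes, against 18.5% of all genes. With SMAD1/5 they were 2 of 9 Fzd genes and 0 in the other families, against 5.97%. Wnt1 and Wnt10b count separately here although they share their highest SMAD2 window and their highest SMAD4 window. The 12 members with a SMAD4 z of at least 2 became 5 after trend removal and 4 with the mean input, and those counts were not split by family. The difference between the families was not tested.

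**Figure D1:**
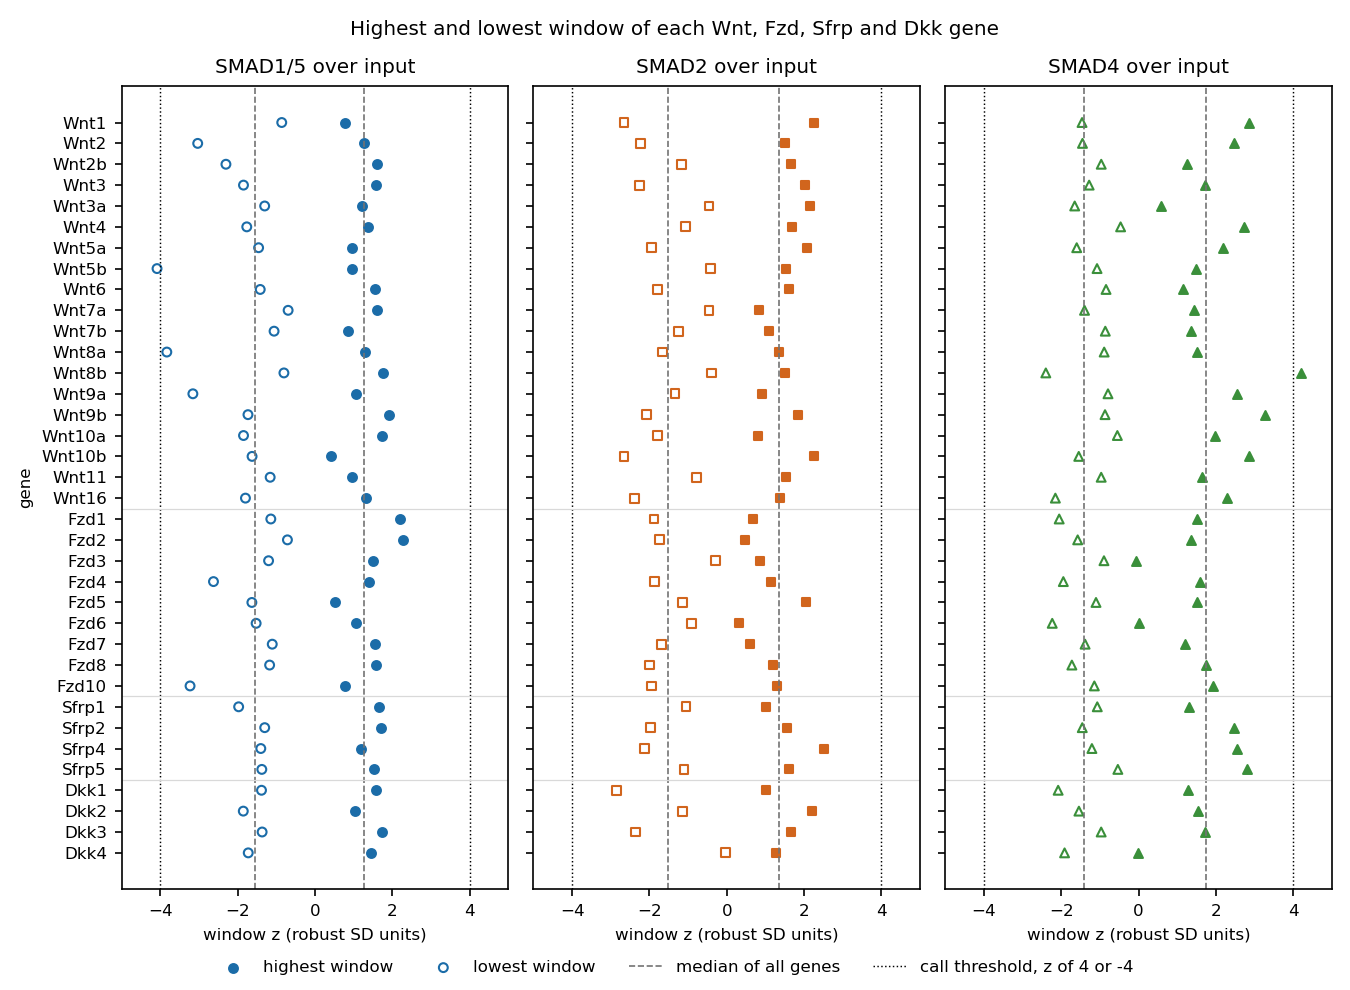
Highest (filled) and lowest (open) window z of each of the 36 members, 1 row per gene and 1 panel per antibody; dashed lines are the medians of all genes and dotted lines the call thresholds. Only Wnt8b with SMAD4 (4.19) and Wnt5b with SMAD1/5 (-4.08) pass a threshold.

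Among the ligands, Wnt8b, a gene known from the developing forebrain, had the highest window of any member by z. By mean log2 ratio, that of Fzd1 with SMAD1/5, described below, was slightly higher. The window lay 2173 to 2499 bp inside the gene from its start, at the end of the tiled stretch, on chr19:44389490-44389874 in the coordinates of the array files, and held 3 probes. The SMAD4 immunoprecipitate gave processed signals of 1565, 731 and 271 at these probes, against 223, 94.2 and 120 in its input. The window mean with SMAD4 was 2.40 ± 0.99 (SD over 3 probes, z of 4.19), which ranked 305 among 16494 genes.

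All 3 probes were above 0 with SMAD4, and the ratio came with a dim input. On the array-centred log2 scale, the SMAD4 input was 1.91 below the mean of the other antibodies' inputs at these probes, and the SMAD4 immunoprecipitate was 0.39 below the mean of the other immunoprecipitates. The same 3 probes also formed the highest SMAD1/5 window of Wnt8b, with a mean of 1.80 ± 1.15 (z of 1.77), and with SMAD2 the mean was 0.13 (z of 0.18). The SMAD1/5 immunoprecipitate there was 1.26 above the mean of the other 2. With the mean input of all 3 antibodies in place of SMAD4's own, the window mean with SMAD4 was 1.21 and was not called. With the trend on the input taken out it was 1.16, again not called. The SMAD4 z was 3.0 under normexp correction, 3.29 in the authors' deposited values and 3.60 under loess, not called. It was 4.16 with centred chromosomes and 4.215 with bright probes, where the call was kept. The SMAD1/5 mean was 0.84 under normexp correction (z of 2.006) and rose to 2.397 with the mean input (z of 3.099). Under loess, trend removal, centred chromosomes and the authors' deposited values the SMAD1/5 mean was between 1.048 and 1.83. Its z was between 1.826 and 1.928 under these.

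At its start site, Wnt8b had the highest SMAD1/5 and the lowest SMAD4 mean of the 35 members with probes there. The mean log2 ratio within 500 bp of the start was 1.38 ± 1.68 (SD over 7 probes) with SMAD1/5. It was -0.10 with SMAD2 and -0.77 ± 0.20 with SMAD4. Over all genes, the SMAD1/5 and SMAD4 means stood at percentiles 97.2 and 7.78. In the window of 7 probes centred 27 bp before the start, the SMAD1/5 input was 1.58 below the other 2. Its promoter sequence, shown above, has the lowest GC content of the matched promoters and 6 CpG dinucleotides, and only an alternative Wnt5b promoter with 4 has fewer. A link between this composition and the ratios was not tested. The lowest SMAD4 window of Wnt8b, 4533 bp before the start, averaged -1.26 ± 0.51 over 3 probes (z of -2.40), with an input 1.14 above the other 2, and was -0.41 with the mean input. Its z was -1.765 after trend removal. It was between -2.56 and -2.20 under normexp correction, loess, centred chromosomes, bright probes and the authors' deposited values.

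Wnt9b, a ligand of the developing kidney, had the next highest SMAD4 window, at z of 3.27. Its 3 probes, centred 4673 bp before the start, had SMAD4 immunoprecipitate signals of 1160, 679 and 311, against 138, 219 and 190 in the input. The mean was 1.89 ± 1.19, with an input 1.69 below and an immunoprecipitate 0.34 above the other 2 antibodies. It was 0.85 with the mean input (z of 1.32) and 0.88 after trend removal (z of 1.63). The z was between 2.32 and 3.29 under normexp correction, loess, centred chromosomes, bright probes, the 250 bp window and the authors' deposited values. The highest SMAD1/5 window of Wnt9b was elsewhere, centred 661 bp before the start. There the SMAD1/5 immunoprecipitate gave 914, 4104, 2899 and 1362, against 253, 1064, 754 and 95.4 in the input. The mean was 1.94 ± 0.96 over 4 probes (z of 1.91). It was 1.11 under normexp correction (z of 2.77) and 1.25 with the mean input (z of 1.64). The z was 1.67 with centred chromosomes, and between 2.29 and 2.60 under loess, trend removal and the authors' deposited values. At the SMAD1/5 window the SMAD4 z was -0.16, so the antibodies were not high at the same place.

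Wnt1 and Wnt10b, a neighbouring pair known from the midbrain and from bone and mammary gland, shared their highest windows. With SMAD4 the window was centred 4812 bp before the Wnt1 start and 6349 bp before the Wnt10b start. Its immunoprecipitate signals were 607, 398 and 739, against 107, 160 and 393 in the input, for a mean of 1.66 ± 0.83 (z of 2.86). This mean was 0.48 with the mean input and 0.70 after trend removal. The z was 1.72 under normexp correction. It was between 2.05 and 2.875 under loess, centred chromosomes, bright probes and the authors' deposited values. The SMAD2 z at these probes was -1.60. The highest SMAD2 window, 1637 bp before the Wnt1 start, gave 1355, 379 and 895 in the immunoprecipitate, against 1108, 98.1 and 271 in the input. The mean was 1.27 ± 0.90 (z of 2.26). It was 0.59 under normexp correction (z of 0.75) and 1.60 with the mean input (z of 3.06). The z was between 2.03 and 2.12 under loess, trend removal, centred chromosomes and the authors' deposited values. SMAD4 had a z of 2.31 at that window and SMAD1/5 one of 0.17. The SMAD2 immunoprecipitate was 1.41 and its input 0.51 above the other antibodies there. The same pair also had a low SMAD2 window, near the far end of the Wnt1 stretch, at -1.42 ± 0.47 over 4 probes (z of -2.66), and at -0.76 under normexp correction and -0.78 with the mean input. Its z was -2.08 after trend removal. It was between -2.81 and -2.37 under loess, centred chromosomes, bright probes, the 250 bp window and the authors' deposited values.

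The lowest SMAD1/5 windows of the ligands came with bright inputs. At Wnt5b, whose protein acts largely without beta-catenin, 3 probes 1242 to 1541 bp before the start had SMAD1/5 immunoprecipitate signals of 1662, 1079 and 523, against 16830, 26480 and 14380 in the input. The mean was -5.09 ± 0.79 (z of -4.08). The window was no longer called at -1.04 after removal of the trend on the input, at -1.33 with the mean input or at -2.80 under loess. With bright probes its z was -3.70, also not called. It stayed called under normexp correction (z of -10.53), with centred chromosomes (z of -4.04) and in the authors' deposited values (z of -4.12). The other inputs at these probes were 973, 1446 and 325 with SMAD2 and 1521, 1080 and 962 with SMAD4, so the SMAD1/5 input was 6.21 above their mean on the log2 scale. The SMAD1/5 immunoprecipitate differed from the other 2 by only 0.49. At Wnt8a, known from the primitive streak, the lowest SMAD1/5 window 4078 bp before the start averaged -4.17 ± 1.03 over 3 probes (z of -3.83). Its SMAD1/5 input was 5.39 above and its SMAD1/5 immunoprecipitate 0.63 above the others. It was -0.67 after trend removal and -0.71 with the mean input. Its z was -2.84 under loess and -3.71 with bright probes. The window was called low under normexp correction (z of -4.57), with centred chromosomes and in the authors' deposited values (z of -4.02 in both).

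**Figure D2:**
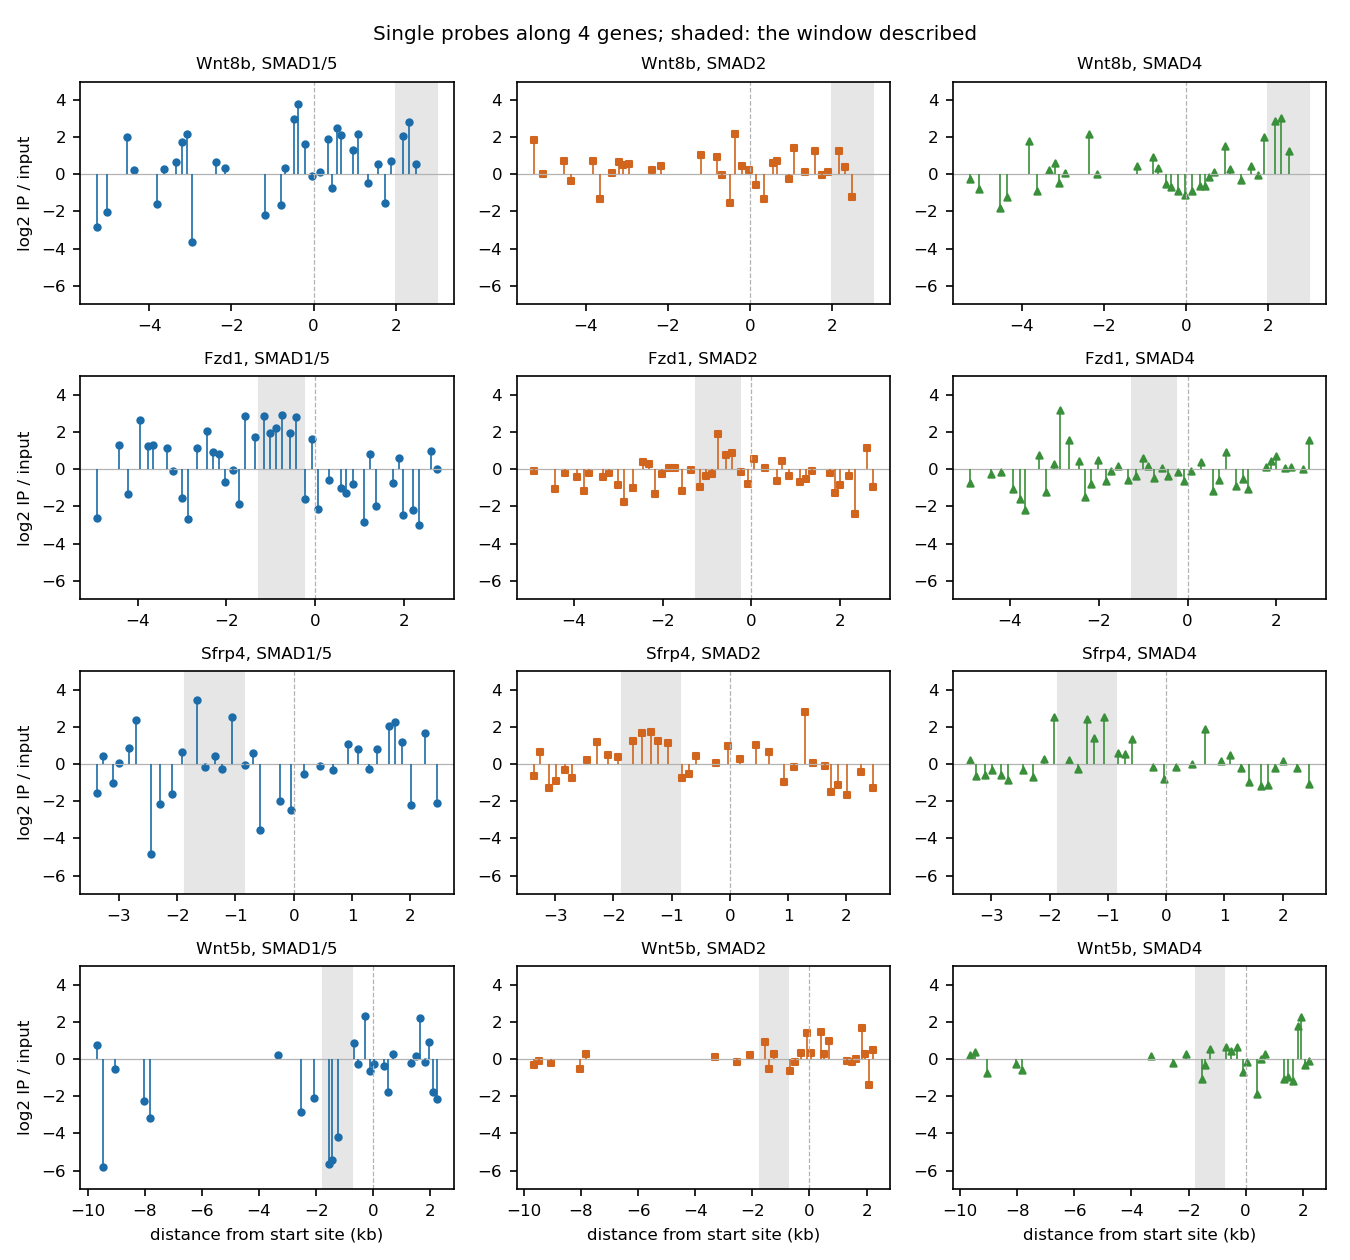
Log2 immunoprecipitate over input of single probes along Wnt8b, Fzd1, Sfrp4 and Wnt5b (rows) with each antibody (columns), by distance from the start site in kb; the shaded band is the 1 kb around the window described in the text. The Fzd1 probes are above 0 together with SMAD1/5 only, and the Wnt5b probes are far below 0 with SMAD1/5 only.

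The remaining ligands had lower windows, and no antibody gave the same order. With SMAD4, the highest windows of Wnt4, Wnt9a, Wnt2, Wnt16 and Wnt5a had z of 2.71, 2.53, 2.46, 2.28 and 2.18. Wnt9a was the most even, with 4 probes between 1.38 and 1.70, and its SMAD4 input was 1.87 below the other 2. Wnt2, known from the placenta and lung, had its highest SMAD4 window 106 bp before the start (1.45 ± 0.86 over 6 probes), and its SMAD4 start-site mean of 1.32 was the highest of the 35 members. With SMAD2, Wnt3a, Wnt5a and Wnt3 had z of 2.15, 2.08 and 2.02. Wnt3 is required for the mouse primitive streak, and Wnt3a acts later in the tail bud. At the highest SMAD2 window of Wnt5a, the classic ligand of beta-catenin-independent signalling, the SMAD2 immunoprecipitate was 1.56 above the other 2. At that of Wnt3 it was 0.13 above them. With all 3 antibodies, Wnt2b, Wnt6, Wnt7a, Wnt7b, Wnt10a and Wnt11 stayed below a z of 2, with their highest z between 0.82 and 1.97.

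Among the receptors, Fzd1 and Fzd2 carried the 2 highest SMAD1/5 windows of all members. Fzd1, a receptor of the beta-catenin branch, had 6 consecutive probes from 431 to 1163 bp before the start. The SMAD1/5 immunoprecipitate gave 2837, 896, 1210, 1941, 1188 and 887 at them, against 227, 130, 88.7, 232, 171 and 68.4 in the input. Every probe was between 1.94 and 2.93, and the mean was 2.45 ± 0.46 (z of 2.20, rank 388 of 16494 genes). All 6 probes stood well above 0, on dim SMAD1/5 input that was not well above background at 2 of them.

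The Fzd1 ratio came with the immunoprecipitate more than with the input. The SMAD1/5 immunoprecipitate was 1.43 above the other 2, and the SMAD1/5 input was 0.22 below the others. SMAD2 had a z of 0.51 and SMAD4 one of -0.23 at the same probes. Fzd1 also had a further stretch, centred 3651 bp before the start, where the SMAD1/5 immunoprecipitate was 2.25 above the other 2, with a ratio of 1.25 over 5 probes. That stretch was at the same time the lowest SMAD4 window of Fzd1, at -1.07 ± 1.12 (z of -2.06). The window before the start was 2.36 with a window of 250 bp (z of 1.76) and 1.92 with the mean input (z of 2.34). It was 1.09 in the authors' deposited table (z of 1.996) and 1.08 after normexp background correction (z of 3.47). The z was 2.21 under loess, 2.24 with centred chromosomes and 1.88 after trend removal. Mean and z thus did not move together.

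Fzd2, a receptor for Wnt5a and other ligands, had its SMAD1/5 window 1492 bp before the start. Its 3 probes gave 4603, 4522 and 1297 in the immunoprecipitate, against 833, 1027 and 95.2 in the input. The mean was 2.34 ± 0.86 (z of 2.28, rank 280). It was 1.20 with the mean input (z of 1.58), and the z was 2.05 with each chromosome centred. The z was higher after trend removal (3.05), under loess (3.27), in the authors' deposited values (3.45) and under normexp correction (4.45). Here the input was 1.46 below and the immunoprecipitate 0.71 above the other antibodies. SMAD2 had a mean of -0.78 at these probes and SMAD4 one of 0.27.

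The other 7 receptors stayed lower. With SMAD2, Fzd5 had a window of 1.19 ± 0.28 over 3 probes (z of 2.06), with an input 2.08 below and an immunoprecipitate 0.51 above the others. Fzd10, Fzd4 and Fzd8 had highest z of at most 1.93 with every antibody. Fzd7, a receptor known for its high level in embryonic stem cells, reached 1.56 with SMAD1/5, 0.61 with SMAD2 and 1.20 with SMAD4. Fzd3, seen only far before its start, and Fzd6, both known for planar polarity, had highest SMAD4 z of -0.07 and 0.0090. The lowest SMAD4 window of Fzd6 was the lowest of the receptors, at -1.17 ± 0.41 over 3 probes (z of -2.24). It was -0.78 under normexp correction (z of -1.905) and -0.95 with the mean input (z of -1.56). It was -1.53 under loess (z of -2.82) and -1.70 after trend removal (z of -3.20). The z was -2.36 with centred chromosomes and -2.32 in the authors' deposited values. Over their 293 probes, the Fzd genes had a median log2 ratio of -0.20 with SMAD1/5, -0.10 with SMAD2 and -0.09 with SMAD4.

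Among the antagonists, the Sfrp genes had the highest SMAD4 windows as a family. Sfrp5, Sfrp4 and Sfrp2 had z of 2.80, 2.53 and 2.47, and Sfrp1 one of 1.29. At Sfrp5 the window lay 5310 bp before the start, and its SMAD4 immunoprecipitate was 1.54 above the other 2 while its input was 0.21 below. Its 3 probes were far apart, from -0.62 to 2.85. At Sfrp2 the window lay 846 bp inside the gene and averaged 1.45 ± 0.71 over 6 probes, with an input 1.13 below and an immunoprecipitate 0.57 above the others.

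Sfrp4, like the pair Wnt1 and Wnt10b, was high with SMAD2 and SMAD4 at the same place. It shares its tiled upstream stretch with a gene named Epdr2 on the arrays, so the window cannot be given to 1 of the 2 genes. With SMAD2, 5 probes centred 1357 bp before the Sfrp4 start gave 548, 369, 424, 232 and 343 in the immunoprecipitate, against 224, 113, 122, 93.3 and 149 in the input. Every one of them was between 1.16 and 1.75, and the mean was 1.42 ± 0.27 (z of 2.52, rank 956 of 16491 genes). With the mean input it was 0.73, and after trend removal 0.88. The z was between 1.815 and 1.909 under loess, normexp correction and the authors' deposited values. It was between 2.37 and 2.61 with the 250 bp window, bright probes and centred chromosomes. At the same probes the mean was 1.19 with SMAD1/5 (z of 1.20) and 1.27 with SMAD4 (z of 2.15). The SMAD2 input there was 1.02 below the other 2, and the SMAD2 immunoprecipitate was 0.49 below them.

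Windows high with 2 antibodies were rare. A z of at least 2 with both SMAD2 and SMAD4 was found in 3 of 1170 member windows (0.256%), against 0.131% of all windows. Of these 3, 2 neighbouring windows were at Sfrp4 and 1 was the shared window of Wnt1 and Wnt10b. With SMAD1/5 and SMAD2 there were 0 of 1170, against 0.0336% of all windows, and with SMAD1/5 and SMAD4 0 of 1193, against 0.0297%. Each antibody had its own input, and the probes share sequence and position.

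The Dkk genes had few high windows. Dkk2, which binds Lrp6, had a SMAD2 window centred 3057 bp before the start with a mean of 1.27 ± 0.74 over 3 probes (z of 2.20). It was 0.46 with the mean input, 0.47 under normexp correction and 0.67 after trend removal. The z of the window was 1.45 in the authors' deposited values, 1.75 under loess and 2.25 with centred chromosomes. Its SMAD2 immunoprecipitate was 1.68 above and its input 1.41 below the other 2, and the z was -1.63 with SMAD1/5 and -1.07 with SMAD4. Dkk1, an inhibitor needed for head formation and itself a known target of beta-catenin, had the lowest SMAD2 window of the members. At 6 probes centred 4739 bp before the start, the SMAD2 immunoprecipitate gave 642, 508, 168, 448, 236 and 582, against 1933, 1045, 873, 1257, 900 and 789 in the input. All 6 were below 0, and the mean was -1.52 ± 0.68 (z of -2.85), but -0.35 (z of -0.58) with the mean input. The z was -1.38 under normexp correction and -2.14 after trend removal. It was between -2.87 and -2.37 under loess, centred chromosomes, bright probes, the 250 bp window and the authors' deposited values. With SMAD1/5 the mean at these probes was 0.87 (z of 0.90), and with SMAD4 it was 0.75 (z of 1.22). The SMAD2 input was 1.78 above the others. Dkk3, which is not known as an Lrp6 ligand, had highest z of 1.73, 1.67 and 1.71 with SMAD1/5, SMAD2 and SMAD4, and Dkk4 had 1.46, 1.27 and -0.02.

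Near the start site the members were low with SMAD1/5. The median of the start-site means over 35 members was -0.98 with SMAD1/5, against -0.48 over 15131 genes, and 6 of 35 members (17.1%) were above 0, against 31.7% of all genes. With SMAD2 the median was 0.04 against 0.06, and 20 of 35 members were above 0 (57.1%), against 55.5%. With SMAD4 it was -0.02 against -0.06, with 16 of 35 (45.7%) against 45.2%. The lowest SMAD1/5 means were -2.26 at Dkk4, -2.12 at Wnt4 and -1.82 at Fzd4. The 4 Sfrp and the 4 Dkk genes were all below 0 with SMAD1/5, with medians of -1.14 and -1.57.

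The number of CpG dinucleotides in the promoter went with the SMAD1/5 start-site ratio over all genes. For a gene with several promoter sequences the richest one was taken. Among genes whose promoter held at least 20, the median SMAD1/5 start-site mean was -0.81 over 17 members and -0.71 over 5481 genes. Among genes with fewer than 10 it was -0.22 over 3556 genes, and only 2 members, Wnt8b and Dkk1, fell in that class. Members and all genes lay close together in the CpG-rich class but not in the middle one. With 10 to 19 CpG dinucleotides, the median was -1.01 over 5 members and -0.35 over 2844 genes. Only the 24 members with a promoter sequence could be placed in a class, so these medians cannot be set beside the one over 35 members. The part of base composition in the start-site difference was not tested.

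**Figure D3:**
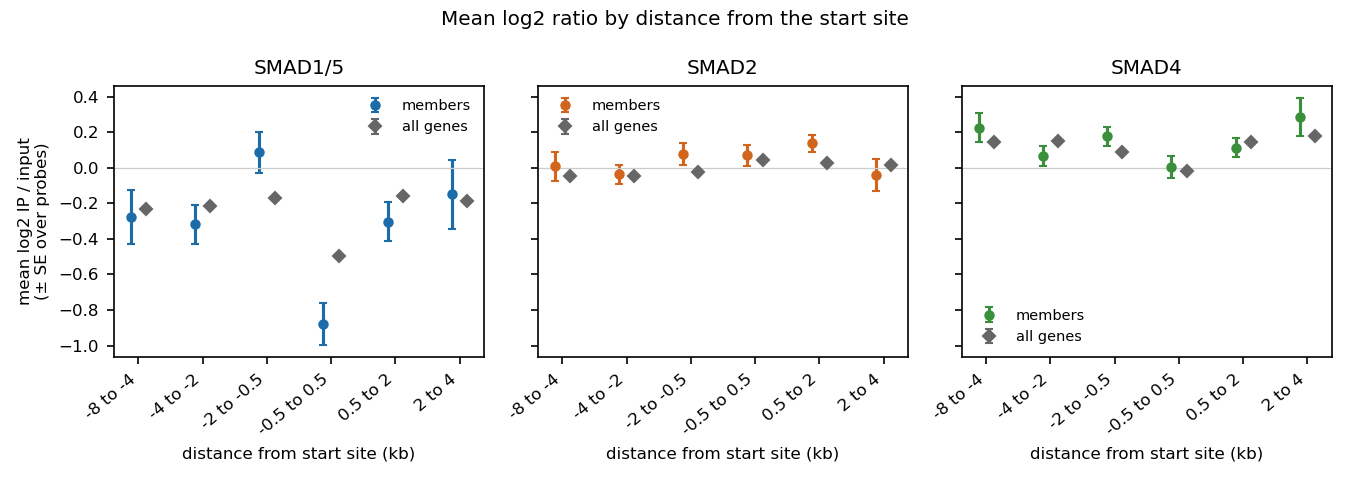
Mean log2 immunoprecipitate over input by distance from the start site, for the members (coloured circles) and all genes (grey diamonds), 1 panel per antibody; bars are the SE over probes and are no replicate error. With SMAD1/5 the members average -0.88 within 0.5 kb of the start, against -0.50 for all genes, and the SMAD2 and SMAD4 means stay within 0.3 of 0.

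By distance, the SMAD1/5 ratio of the members was lowest at the start. Within 500 bp of the start the mean over 186 member probes was -0.88 ± 0.12 (SE over probes), against -0.50 over all genes. From 500 to 2000 bp before the start it was 0.09 ± 0.12 over 248 probes, against -0.17. From 500 to 2000 bp after the start it was -0.30 ± 0.11 over 288 probes, against -0.16, and from 4000 to 2000 bp before the start -0.32 ± 0.11 over 277 probes, against -0.22. The input moved with it: within 500 bp the members' SMAD1/5 input averaged 1.72 above the array median, against 1.23 for all genes, while the immunoprecipitate averaged 0.28 against 0.17. From 500 to 2000 bp after the start the SMAD1/5 input of the members was still 1.02, against 0.55. With SMAD2 the immunoprecipitate and input were both raised near the start, by 0.82 and 0.67 over the members, and the ratio was 0.07 ± 0.06. With SMAD4 they were 0.47 and 0.58, and the ratio was 0.00 ± 0.06.

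The channels were also read separately, with the signal of each antibody set against the mean of the other 2 at the same window. These 3 thresholds were chosen after values had been seen. An immunoprecipitate at least 1.5 above the others in some window was found at 4 of 36 members with SMAD1/5, against 21.8% of all genes. With SMAD2 it was found at 6 of 36, against 19.4%, and with SMAD4 at 6 of 36 (16.7%), against 7.99%. With SMAD4 the 6 were Dkk3, Dkk1, Wnt9b, Sfrp5, Wnt3 and Sfrp4, which include 4 antagonists. The largest was at Dkk3, where the SMAD4 immunoprecipitate was 2.16 above the others 527 bp before the start, rank 92 of 16491 genes, while the log2 ratio there was only 0.32. At the windows of the others the SMAD4 log2 ratio was 1.07 at Sfrp5 and 0.35 at Dkk1. It was -0.05 at Wnt3, -0.35 at Sfrp4 and -0.41 at Wnt9b. With SMAD1/5 the 4 were Fzd1, Wnt16, Wnt2 and Fzd7, with log2 ratios of 1.25, -0.38, -1.265 and 0.93 at these windows.

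Inputs also differed between the antibodies. An SMAD1/5 input at least 3 above the others was found at 16 of 36 members (44.4%), against 34.4% of all genes, and such an input was found at 0 of 36 members with SMAD2 or SMAD4, against 0.0849% and 0.121%. An input at least 2 below the others was found at 20 of 36 members with SMAD4 (55.6%), against 42.9%, at 8 of 36 with SMAD2, against 27.5%, and at 1 of 36 with SMAD1/5, against 2.12%. In the highest SMAD4 windows, the SMAD4 input was below the other inputs at 33 of 36 members (91.7%), against 89.7% of all genes, with a median difference of -1.19 against -1.21. The SMAD4 immunoprecipitate in those windows was above the others at 21 of 36 members (58.3%), against 49.6%, with a median difference of 0.08 against -0.01. A high ratio is by construction a high immunoprecipitate or a dim input, and with SMAD4 the members' median differences were close to those of all genes. In the highest SMAD2 windows the immunoprecipitate was above the others at 72.2% of members, against 60.4%. The SMAD2 input was below at 86.1%, against 88.7%. In the highest SMAD1/5 windows the immunoprecipitate was above at 75.0%, against 75.3%, and the input below at 66.7%, against 57.6%. These differences were not tested. One software version and protocol served both SMAD1/5 and SMAD2, and another served SMAD4, so that extraction and antibody cannot be told apart for SMAD4.

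**Figure D4:**
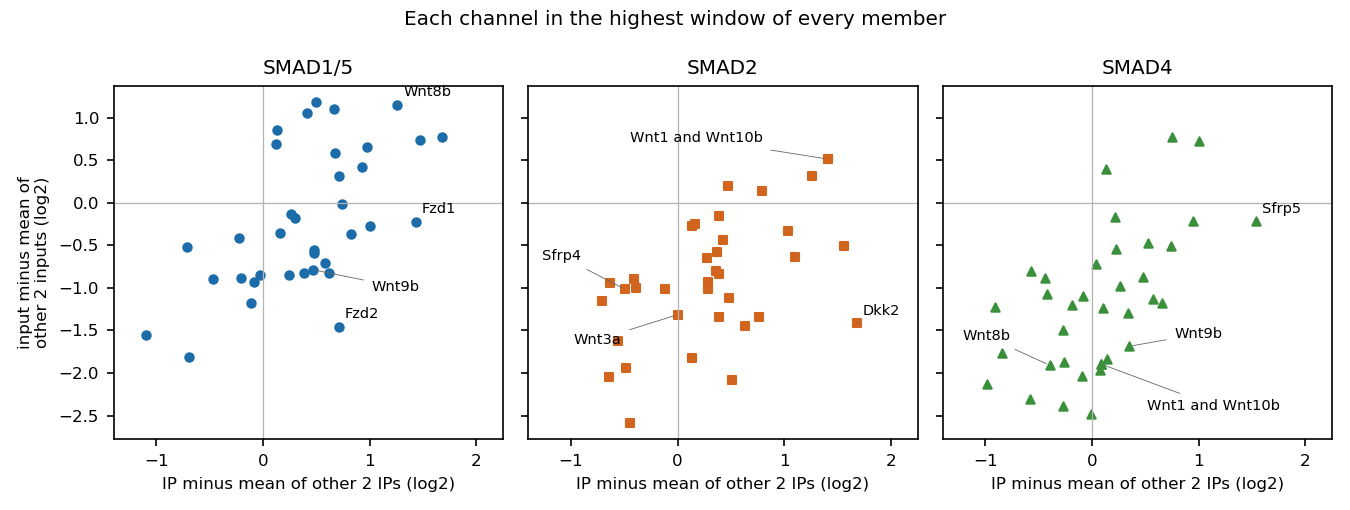
Immunoprecipitate difference (horizontal, log2) and input difference (vertical, log2) of each antibody against the mean of the other 2, in the highest window of every member, with the highest windows named. Fzd1 with SMAD1/5 (1.43 and -0.22) and Dkk2 with SMAD2 (1.68 and -1.41) lie far to the right, whereas Wnt8b with SMAD4 (-0.39 and -1.91) lies low and left of 0.

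Probe by probe, the ratios of the 3 antibodies were almost unrelated over the members. Pearson's r of the log2 ratio was 0.02 between SMAD1/5 and SMAD2 over 1234 probes, 0.10 between SMAD1/5 and SMAD4 over 1256 and 0.05 between SMAD2 and SMAD4 over 1234. The single channels were related: r was 0.62, 0.64 and 0.79 between the immunoprecipitates in the same order of pairs, and 0.52, 0.44 and 0.55 between the inputs. Over all probes r was 0.04, 0.03 and 0.06 for the ratios. Probes share sequence, position and labelling, neighbouring probes see the same fragments, and these r are descriptions of the arrays.

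The rest of the Wnt pathway was read from a list of 60 genes of known role, 50 of which had windows. With SMAD4, 1 of 50 was enriched, against 2.49% of all genes. It was Csnk1e, a casein kinase that acts on Dishevelled. A z of at least 2 was reached by 22 of 50 (44.0%), beside the 40.1% of all genes. Csnk1e had a window 5281 bp before its start with a mean of 2.53 ± 0.64 over 3 probes (z of 4.43). The next was Tcf7l1, the repressive TCF of embryonic stem cells, whose SMAD4 window 230 bp inside the gene averaged 2.18 ± 1.33 over 4 probes (z of 3.78) with an input 3.17 below the others. By role, 4 of 5 agonists and 9 of 15 cytoplasmic components had a SMAD4 z of at least 2, as had 4 of 8 targets, 2 of 6 nuclear factors, 1 of 2 secretion genes, 2 of 10 other antagonists and 1 of 7 co-receptors and other receptors. Lgr5, Nkd1 and Axin2 were listed under 2 roles each, so the role counts overlap. The roles were not tested against each other.

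With SMAD2, 0 of 50 were enriched, against 0.0667% of all genes, and 9 of 50 (18%) had a z of at least 2, against 18.5%. The highest were the TCF/LEF factor Lef1 at 2.88 and the Frizzled-degrading ligase Rnf43 at 2.81. Low with SMAD2 was 1 of 50, against 0.34% of all genes. It was Ndp, the Norrin ligand of Fzd4, at -2.29 ± 1.01 over 3 probes (z of -4.24) with an input 2.51 above the others. With SMAD1/5, 0 of 50 were enriched, against 0.0% of all genes, and 4 of 50 (8.00%) had a z of at least 2, against 5.97%. The highest were Porcn, the enzyme that attaches the lipid to Wnt proteins, at 2.15, and Lef1 at 2.12. Low with SMAD1/5 was 1 of 50, against 2.62% of all genes. It was Cdx4, a known Wnt target, at -6.78 ± 1.96 over 4 probes (z of -6.28) with an input 7.04 above the others. Porcn, Ndp and Cdx4 lie on the X chromosome.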

How the data were processed

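Genomic DNA from 3 immunoprecipitates and their inputs was measured on 6 Agilent promoter arrays. The deposited scanner files hold an intensity per spot and channel. Feature Extraction had subtracted background and normalised the dyes in the processed intensity, per the file headers, in version 9.1.3.1 with a copy number protocol for SMAD1/5 and SMAD2, and version 9.5.3.1 with a ChIP protocol for SMAD4. The software setting thus cannot be told apart from the antibody for SMAD4, whereas SMAD1/5 and SMAD2 share it. The deposited files also hold other columns, flags of 0 or 1 per spot, set by the same software. The authors' deposited log2 values, for which the submitters' processing notes name limma, served as an alternative. They correlated with the scanner log2 ratio at r of 0.74 to 0.95 over probes, which gives their direction as immunoprecipitate over input. Their array medians lay between -0.01 and 0.08, and their scale and exact centring stay unknown. No source used here names the genome build of the probes.

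From these, log2 processed red over green was computed per probe and centred on the array median, without loess or quantile normalisation. Control spots and outlier spots were left out, and the outlier flags removed 22 member probes on the SMAD2 arrays and 0 on the others. No member probe was saturated. Single channels were centred on the array median of their log2 signal. Windows, z and calls were made over all genes as the report defines them, with robust SDs from the windows below the median window. Array number and antibody came from the sample titles. No test was run, since each probe was measured on 1 array per antibody, and the number of arrays limits the precision. Fully described are the 4 members with the highest and the 2 with the lowest window of each antibody and every called member, and of the other pathway genes the called ones and the 2 highest of each antibody. The members and lists were chosen with earlier results of these data known. Window scoring was tested on simulated data. Gene names were updated through RefSeq accessions where these matched, and members kept their array names. Tools were Python 3.11.15, numpy 2.4.6, pandas 2.3.3 and, in R 4.3.3, limma 3.58.1. Alternatives were normexp correction with an offset of 50, each chromosome centred on its own median, loess, removal of the trend on the input, a mean input, bright probes only, the authors' values, a window of 250 bp and a z of 3.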

Additional observations from a re-analysis of the deposited data

How the results depend on the processing

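No paired analysis was possible because each antibody had 1 biological replicate and arrays 1 and 2 carry different probes; for the same reason no replicate could be left out. The Wnt8b call with SMAD4 was kept with each chromosome centred, with bright probes only and at a z of 3, and the enriched members were 0 under normexp correction, loess, removal of the trend on the input, the mean input, the authors' deposited values and the 250 bp window. With SMAD1/5, normexp correction gave 4 enriched members, Wnt6, Wnt9a, Fzd2 and Sfrp5, while it called 959 genes in all. Low SMAD1/5 members, 1 in the report, were 7 under normexp correction, 4 at a z of 3, 3 in the authors' deposited values, 2 with each chromosome centred and 0 under loess, trend removal, the mean input, bright probes and the 250 bp window. Low genes in all were 432 of 16494 with SMAD1/5 in the report's setting. They were 2857 under normexp correction, 1662 at a z of 3, 1276 in the authors' deposited values and 500 with each chromosome centred. Under loess they were 510, after trend removal 28 and with the mean input 33. With bright probes they were 373 of 16269 and with the 250 bp window 388 of 16356. Members with a SMAD1/5 z of at least 2 were 21 under normexp correction, 9 in the authors' deposited values, 8 under loess, 6 after trend removal, 6 with the mean input, 1 with the 250 bp window and 0 with bright probes. With SMAD2 they were 4 with the mean input, 3 under normexp correction and after trend removal, and 2 under loess, with bright probes and in the authors' deposited values. With SMAD4 they were 5 after trend removal and 4 with the mean input. No share of all genes under the same alternatives is given beside these counts at z of at least 2. A shift of the members alone can therefore not be read from them. The median highest z of the members was 2.21 under normexp correction and 1.19 with bright probes for SMAD1/5, and 1.41 after trend removal and 1.27 with the mean input for SMAD4. All SMAD4-enriched genes, 410 in the report, were 377 to 413 with the 250 bp window, bright probes or centred chromosomes, 158 under loess, 84 in the authors' deposited values, 51 under normexp correction, 3 after trend removal and 2 with the mean input, and 1757 at a z of 3. SMAD2-enriched genes, 11 in the report, ranged from 2 to 13, with 247 at a z of 3. The 4 highest and 2 lowest member windows of each antibody kept their sign under each alternative that gave a value, and bright probes and the 250 bp window gave none for some of them. The other named windows were not recomputed. The cause of these shifts was not tested. Dim inputs, single arrays and the lack of a dye swap limit all values.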
